A study of Homo sapiens with 27 samples.

Results

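Marked A sites are positions at which O6-MeG-seq, an assay built to map O6-methylguanine, placed its mark on an adenine. They were chosen as autosomal sites whose marked base was A and whose deposited score was 30 or more. There were 22285112 such sites among the 149160252 sites of all 27 libraries. A further 12386759 marked sites with C and 22533697 with T passed the same rule and served for comparison. The question was at which offsets from the A marked G positions lay, 1 base beside it or elsewhere, in each group of samples. Each offset was counted separately.

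O6-methylguanine is a lesion that temozolomide (TMZ), a methylating drug used against glioblastoma, leaves in DNA. MGMT is the repair protein that takes the methyl group off this base. TMZ also methylates the N7 position of guanine and the N3 position of adenine, and N3-methyladenine blocks many DNA polymerases. In this assay an antibody first captures fragments with O6-methylguanine, and the place where a polymerase stopped gives the marked base. A mark on an A can therefore be a stop that lies beside a modified G, a stop at the A itself, or a stop without a lesion, and a single mark does not tell them apart. Whether the deposited position is the stop itself or was already moved by 1 base is not given in the sources used here, so before, after and each offset below are relative to the deposited position.

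The cells were LN-229, an established human glioblastoma line, in an MGMT-transfected version and in its transfection control, called WT. Each received 1 mM TMZ or 1% DMSO as solvent, either 1 time (1x) or 3 times with 4 h between doses (3x), with extraction of the DNA 24 h after dosing began. These 8 groups had 3 libraries each. Naked DNA, purified from LN-229 cells and treated with 1 mM TMZ outside them, gave the other 3 libraries. Its source differed by replicate, with non-transfected WT cells for replicate 1, WT cells for replicate 2 and MGMT-transfected cells for replicate 3, so its spread also holds the source of the DNA. The design text calls the replicates of the cell groups biological. Whether a group of transfected cells came from 1 clone was not given in the sources used here, and no naked DNA without TMZ was analysed here, so background marks in DNA treated outside cells have no measured level.

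To show what the sites look like, 9 promoter windows follow, read 5′ to 3′ on the marked strand with the marked A as the capital letter. Each is 21 bases long and comes from RefSeq promoter sequences (GRCh38.p14). Per class, the A positions with the largest excess of TMZ and naked DNA libraries over solvent libraries were taken. No solvent library marked any of the 9, which follows in part from that choice. The first 3 have a G directly before the A, the next 3 a G directly after it, and the last 3 no G on either side.

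LRRC41, chr1:46303690-46303710, minus strand: caggatcaagAaggacttgta
LINC00184, chr1:234629092-234629112, minus strand: aattgctatgAttagtcaatt
RAD50, chr5:132556995-132557015, plus strand: ccgaggcaggAagctgtgagt
LCE3D, chr1:152580675-152580695, plus strand: tgaacctggaAgcaggatcac
ZFPM1-AS1, chr16:88531173-88531193, minus strand: ggacctgttcAgcttggcctt
PM20D1, chr1:205850205-205850225, minus strand: gtcctagcgaAgcgatgattg
LINC01742, chr20:58003873-58003893, plus strand: ctgtgtaagaAatgattgtaa
TTLL1-AS1, chr22:43038577-43038597, minus strand: gtctgttgtaAatggaactag
EPHA2-AS1, chr1:16155189-16155209, minus strand: ggaagtcccaAagtcaagcgt

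The A near LRRC41 lay at -84 from that gene's start, in a stretch that is also the promoter of UQCRH, a subunit of respiratory complex III. It was marked in 2 of the 3x TMZ libraries and 1 of the 1x TMZ libraries. The A of RAD50, which codes for a protein of DNA double-strand break repair, lay at 28 from the start, inside the transcript, and was marked in 1 naked DNA library and 2 libraries of 3x TMZ. The A near LCE3D, a gene of the skin's cornified envelope, lay at -169. It was marked in 2 naked DNA libraries, 1 of 3x TMZ and 1 of 1x TMZ, and the G directly after it was itself marked in 1 naked DNA library and 2 TMZ libraries. At the A of ZFPM1-AS1, at -130 and marked in 4 libraries, the G after it was marked in 1 naked DNA and 1 TMZ library. No library marked an adjacent G of the A near PM20D1, at -83, a gene for a secreted enzyme of N-acyl amino acids. The G before the A at LRRC41, LINC00184 and RAD50 was likewise marked in no library. Of the 3 windows without an adjacent G, the one at LINC01742 was marked in 3 of the 3x TMZ libraries, that at TTLL1-AS1 in 2 of 3x and 1 of 1x, and that at EPHA2-AS1 in 1 naked DNA library and 1 of 3x TMZ.

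Repeats of this kind were rare. Of all A sites, 94.4% were marked in 1 library only. In the promoter sequences, chromosome 8 left out, 767 A positions were marked in at least 2 and 20 in at least 3 TMZ or naked DNA libraries. The same counts were not made for solvent libraries, and libraries that share many positions were not left out.

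A sites per library ran from 151244 in a WT 1x solvent library to 2100991 in naked DNA replicate 1. Solvent libraries had a median of 668029, TMZ libraries of 900490. The files list each position 1 time and give no number of reads, so the depth behind a site is unknown, and the precision of a library's value follows from its number of sites. Libraries also shared positions. Among the 351 pairs of libraries, 48 shared more than 1.6 times as many sites outside G as the median pair, up to 289 times, and linking such pairs gave 5 sets. Set 1 was made of the 4 cell libraries of 1x replicate 1 together with naked DNA replicate 1. In its WT and MGMT solvent libraries 17.2% and 18.2% of A sites were also A sites of naked DNA. The other solvent libraries had 0.579% to 0.709%, and those of set 1 stay in the solvent means unless left out. Set 2 joined the second 1x and the first 3x replicate, and set 3 the third 1x and the second 3x replicate with the third of 3x TMZ. Set 4 was the 3x solvent pair of replicate 3 and set 5 the remaining naked DNA. Values within sets are given beside the pooled ones where a set holds both groups.

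For each A site, the base positions from 10 bases before (offset -10) to 10 bases after it on the same strand were searched for a reference G, a G marked in libraries of another kind. For cell libraries the reference was the 22661199 G positions of naked DNA, and for naked DNA it was the 27641926 G positions of the 3x TMZ cells. Enrichment at an offset is the percent of A sites with a reference G there, divided by the mean percent over offsets 5 to 10 on both sides, so 1 means the level of the surroundings. In the surroundings 0.476% ± 0.0182 (SD, n = 12) of A sites in solvent and 0.520% ± 0.0282 (n = 12) under TMZ met a reference G at a given offset. The measure holds both the base composition next to the A and the marking of those G. The sequences below separate the first from the second in promoters only.

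The nearest base after the A stood out in every group. A reference G lay at offset +1, directly 3′ of the marked A, 3.23 ± 0.549 times as often as in the surroundings in TMZ libraries and 2.27 ± 0.109 times in solvent libraries (SD, n = 12 each). In percent, 1.69% ± 0.365 of A sites under TMZ and 1.08% ± 0.0897 in solvent had it. Directly 5′ of the A, at offset -1, enrichment was 1.17 ± 0.125 under TMZ and 0.914 ± 0.0399 in solvent. A G on the 3′ side was thus more frequent than on the 5′ side in solvent cells too, where the levels were lower.

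**Figure D1:**
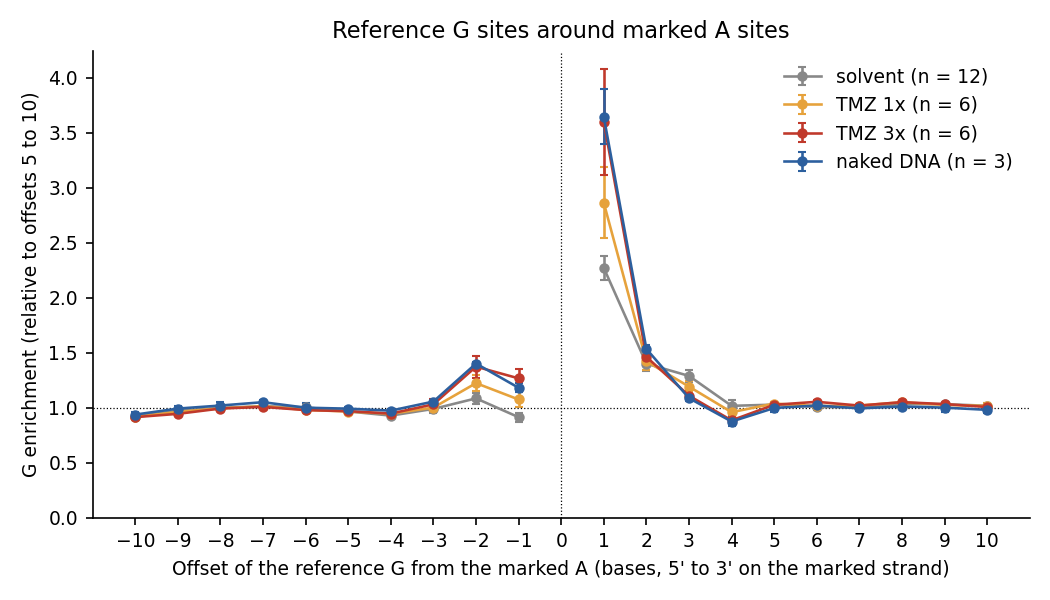
G enrichment (a ratio to offsets 5 to 10) around marked A sites against the offset in bases, as group means with SD over libraries. At offset +1 the cell groups stand at 2.27 (solvent), 2.86 (1x TMZ) and 3.60 (3x TMZ), and naked DNA, which is read against another reference, at 3.64. At offset -1 solvent lies below 1 (0.914) and the other groups above it.

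At offset +1 the 12 solvent libraries were close together. The 3 values were 2.36, 2.33 and 2.14 in WT 1x solvent, 2.49, 2.18 and 2.33 in MGMT 1x solvent, 2.18, 2.28 and 2.37 in WT 3x solvent and 2.11, 2.22 and 2.25 in MGMT 3x solvent. WT 1x TMZ had 2.82, 2.68 and 3.30, and MGMT 1x TMZ had 2.66, 2.50 and 3.21. WT 3x TMZ had 3.10, 4.01 and 3.78, MGMT 3x TMZ 2.87, 3.89 and 3.93, and naked DNA 3.39, 3.89 and 3.65. The lowest TMZ library lay just above the highest solvent library, so the treatments did not overlap, while replicate 1 of the 3x TMZ groups lay among the 1x values. The difference between TMZ and solvent was 0.959, with TMZ higher in 12 of 12 same-numbered pairs (exact permutation test, two-sided and stratified by genotype and dosing, p = 1.25e-05, the smallest it can give, adjusted p = 0.000463 over the 37 comparisons of this kind). Within sets 1, 2 and 3 it was 0.319, 0.587 and 1.44, so its size changed between sets and its direction did not. With the opposite strand as the baseline it was 1.54.

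At offset -1 the values were lower and closer to the surroundings. WT 1x solvent had 0.982, 0.860 and 0.893, MGMT 1x solvent 0.991, 0.921 and 0.882, WT 3x solvent 0.897, 0.903 and 0.896, and MGMT 3x solvent 0.884, 0.944 and 0.921. WT 1x TMZ had 1.13, 1.07 and 1.14, MGMT 1x TMZ 1.07, 0.945 and 1.08, WT 3x TMZ 1.23, 1.34 and 1.33, and MGMT 3x TMZ 1.15, 1.35 and 1.19. Naked DNA had 1.14, 1.19 and 1.22. All 12 solvent values were below 1 and 11 of 12 TMZ values above it, the exception being MGMT 1x TMZ replicate 2, which also overlapped with solvent. The difference was 0.257, with TMZ higher in 12 of 12 pairs (exact two-sided permutation test, p = 2.5e-05, adjusted p = 0.000463), and 0.115, 0.211 and 0.335 within sets 1, 2 and 3. With A sites of any score it was 0.165, and with the opposite strand as the baseline 0.443.

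**Figure D2:**
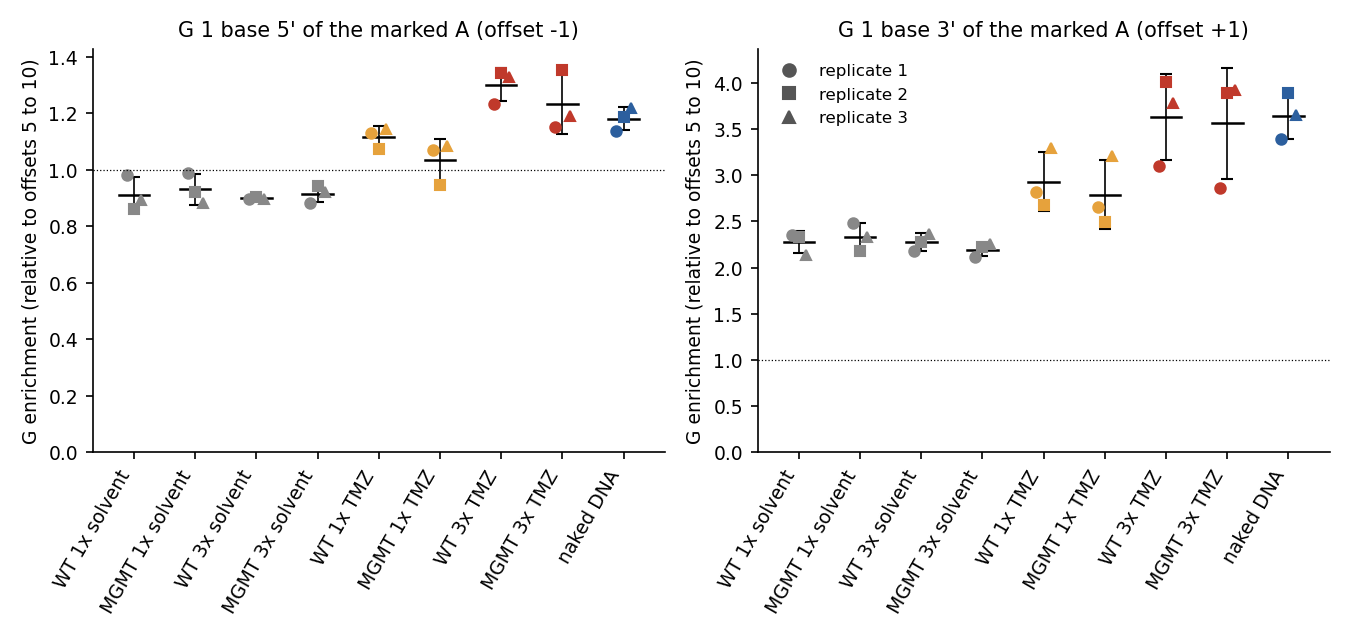
G enrichment directly before (left) and directly after (right) the marked A by group, 1 point per library, with mean and SD of 3 libraries and the level of the surroundings as a dotted line. On the right all 12 solvent libraries (2.11 to 2.49) lie below all 12 TMZ libraries (2.50 to 4.01).

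Of the 20 offsets, 7 (35.0%) differed between TMZ and solvent at an adjusted p of 0.05 or less (exact two-sided permutation tests, adjusted over the 20 offsets). Enrichment was higher under TMZ at 4 offsets (20.0%) and lower at 3 (15.0%). Beside the adjacent bases, the largest of these was offset -2, with 1.3 under TMZ and 1.09 in solvent (adjusted p = 0.0005, permutation). Enrichment at -2 was above that at -1 in every group. It was 1.09 against 0.914 in solvent, 1.22 against 1.08 in 1x TMZ and 1.37 against 1.27 in 3x TMZ. Naked DNA, on its own reference, had 1.40 against 1.18. At offset +3 TMZ was lower, with 1.15 against 1.29, and at +4 as well, with 0.923 against 1.02. The changes at -6 (0.980 against 1.00) and +6 (1.03 against 1.01) were small, and both offsets belong to the surroundings used as the baseline. Offset +2, at 1.44 and 1.40, did not pass (permutation, adjusted p = 0.279). On the opposite strand a reference G was less frequent beside the A than in the surroundings. Enrichment there at offsets -1 and +1 was 0.665 ± 0.0193 and 0.706 ± 0.0345 in solvent, and 0.618 ± 0.0122 and 0.568 ± 0.0720 in 3x TMZ.

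Enrichment at both adjacent offsets was higher under TMZ after 3 doses than after 1. The 3x and 1x cells also differed in total dose and in the time from the last dose to extraction, so these cannot be told apart. Under TMZ, enrichment at +1 was 3.60 ± 0.484 (SD, n = 6) after 3 doses and 2.86 ± 0.322 (SD, n = 6) after 1 dose, a difference of 0.735 with 3x higher in 6 of 6 pairs (exact permutation test, two-sided and stratified by genotype, p = 0.025, adjusted p = 0.044). The 2 dosings overlapped, the values within sets 2 and 3 were 0.395 and 0.648, and without the libraries of set 1 the difference was 0.674 and no longer passed (exact p = 0.08). Without replicate 2 of both dosings it was 0.424 (exact p = 0.278), and with the opposite strand as the baseline 1.17. At -1 it was 1.27 ± 0.0860 against 1.08 ± 0.0706 (n = 6 each), a difference of 0.192 without overlap (exact permutation p = 0.005, the smallest possible, adjusted p = 0.0132), and 0.183 and 0.190 within sets 2 and 3. With A sites of any score this difference was 0.0414 (exact p = 0.27) and did not pass. Without replicate 2 of both dosings it was 0.119, too few libraries to pass (smallest exact p 0.0556), and with the opposite strand as the baseline it was 0.326. Solvent libraries had 0.921 ± 0.0540 after 1x and 0.907 ± 0.0215 after 3x at -1, and 2.30 ± 0.126 and 2.24 ± 0.0876 at +1.

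MGMT and WT cells gave no difference around A that passed a test with all naked DNA libraries as the reference. Under TMZ, enrichment at +1 was 3.18 ± 0.616 in MGMT cells and 3.28 ± 0.526 in WT cells (SD, n = 6 each), a difference of -0.106 (exact two-sided permutation p = 0.635). It was -0.160, -0.209 and -0.0189 within sets 1, 2 and 3. At -1 it was 1.13 ± 0.137 in MGMT and 1.21 ± 0.111 in WT, a difference of -0.0769 with MGMT lower in 5 of 6 pairs (exact permutation p = 0.085), and -0.0613, -0.106 and -0.0626 within the sets. With naked DNA replicates 2 and 3 alone as the reference this difference was -0.106 and reached the threshold (exact permutation p = 0.05). The TMZ effect at -1, TMZ minus solvent, was 0.209 in MGMT and 0.304 in WT cells, and their difference of -0.0953 did not pass after adjustment over 10 such tests (exact permutation p = 0.045, adjusted p = 0.1125). In solvent the genotypes differed by -0.0134 at +1 (exact p = 0.855), with 0.127, -0.111, 0.0643 and -0.115 within sets 1 to 4, and by 0.0185 at -1 (exact p = 0.44), with 0.00891, 0.0239, 0.0148 and 0.0245. A p that misses the threshold does not show that the genotypes were alike.

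To set naked DNA against cells, both were read against 1 common reference, the 10146344 G positions of the 1x TMZ cells. Enrichment at +1 was then 3.62 ± 0.278 in naked DNA (SD, n = 3) and 3.77 ± 0.589 in 3x TMZ cells (SD, n = 6), a difference of -0.154 (exact two-sided permutation p = 0.679, smallest possible 0.0119). Leaving out each replicate in turn, it ran from -0.376 (without replicate 1, exact p = 0.0667, then the smallest possible) to -0.0312. At -1 it was 1.18 ± 0.0471 and 1.23 ± 0.0937, a difference of -0.0467 (exact p = 0.417). The groups overlapped at both offsets, and the adjacent G of A sites gave no difference between DNA treated outside cells and cells after 3 doses that passed with these 9 libraries. No set holds both groups, so set and group cannot be told apart. The reference libraries lie in sets 1, 2 and 3. Every 3x TMZ library shares set 2 or 3 with some of them, while of naked DNA only replicate 1 does, in set 1. The reference was thus not equally separate from both groups.

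The other non-G marks had other profiles. At +1, across the 12 TMZ libraries, enrichment was 0.361 ± 0.0209 at C sites and 0.978 ± 0.0858 at T sites, against 3.23 at A sites. The differences of 2.87 and 2.25 had the same sign in 12 of 12 libraries (exact two-sided sign-flip permutation test, p = 0.000488, the smallest possible, adjusted p = 0.00226 for both). These enrichments also carry how often a G follows each base in the genome, which was not measured. The promoter sequences below give it for promoters only. In solvent the values were 2.27 at A, 0.356 at C and 0.916 at T, so the gap was there without TMZ. At -1 the order turned, with 1.17 at A, 1.48 ± 0.147 at C and 1.47 ± 0.241 at T (differences of -0.304 and -0.300, same exact test and p). That order did not hold for sites of any score, where A was higher than C by 0.134 and than T by 0.0514, nor for A against C with the opposite strand as the baseline, where A was higher by 0.0367. Naked DNA was read against the G of 3x TMZ cells, so its values are not on the scale of the cell values. T sites had 2.44, 2.18 and 2.10 and C sites 2.18, 2.04 and 2.02, while A sites stayed between 1.14 and 1.22. On the common reference, the G of 1x TMZ cells, naked DNA had 1.18 ± 0.0471 at A, 2.09 ± 0.0212 at C and 2.30 ± 0.147 at T (SD, n = 3), and 3x TMZ cells had 1.23 ± 0.0937, 1.82 ± 0.172 and 1.78 ± 0.207 (SD, n = 6). A sites were the lowest of the 3 bases in both, and the size of the gap was not tested between them. G sites had 2.25 ± 0.0580 at -1 and 2.20 ± 0.0526 at +1 in naked DNA, so marked G tended to lie beside further marked G on both sides.

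**Figure D3:**
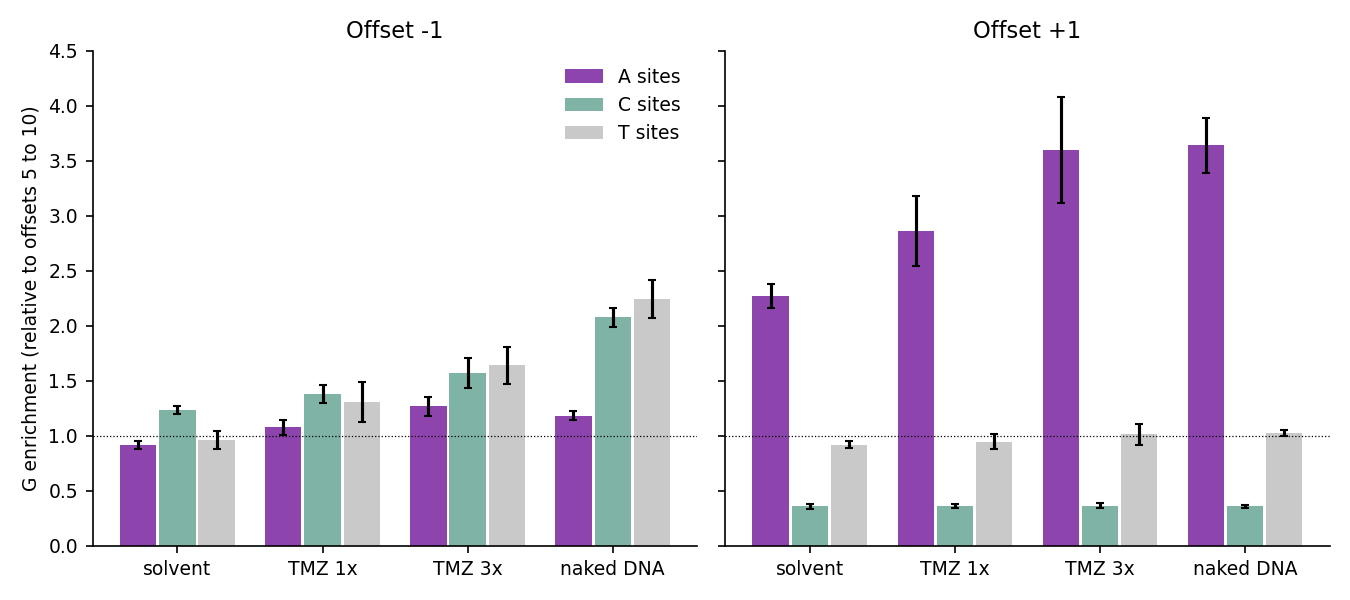
G enrichment at offsets -1 (left) and +1 (right) for marked A, C and T sites, as bars of group means with SD over libraries, the dotted line being the level of the surroundings; cells are read against G of naked DNA and naked DNA against G of 3x TMZ cells. At +1 A sites stand above 2 in every group and C sites near 0.36, and at -1 C and T sites of naked DNA (2.08 and 2.24) stand above A sites (1.18).

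Promoter sequences gave the true neighbours of the A, marked or not. The RefSeq table covered 9142624 autosomal bases of 33725 promoters, from 250 bases before to 50 bases after each gene's start, and the deposited base equalled the table's base at 560806 of 560806 sites compared. Among all 3684863 A positions there, on both strands, 33.4% were followed by a G and 27.8% preceded by one. Between 301 and 7036 marked A sites per library lay in these sequences.

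Under TMZ 53.6% ± 6.42 of promoter A sites were followed by a G, against 41.4% ± 2.99 in solvent (SD, n = 12 each). The lowest, median and highest libraries had 44.0%, 54.6% and 63.4% under TMZ, and 37.2%, 40.5% and 48.0% in solvent. All 12 solvent and all 12 TMZ values were above the 33.4% of all A positions, and 3 solvent libraries lay above the lowest TMZ library (MGMT 1x replicate 1). They were MGMT 1x replicate 1 (48.0%), WT 3x replicate 3 (44.4%) and MGMT 3x replicate 2 (44.3%). The difference was 12.2 percentage points (exact two-sided permutation p = 5e-05, adjusted p = 0.000463, TMZ higher in 11 of 12 pairs), with 4.94, 8.55 and 17.8 points within sets 1, 2 and 3. Naked DNA had 57.5%, 60.1% and 59.5%, close to 3x TMZ (57.4% ± 4.98, n = 6), and the difference of 1.67 points did not pass (exact permutation p = 0.595). After 1x the share was 49.8% ± 5.60 (n = 6), and the difference of 7.58 points between 3x and 1x did not pass either (exact permutation p = 0.055). It was 6.36 and 4.38 points within sets 2 and 3 and 3.30 points without replicate 2 (exact permutation p = 0.444). MGMT and WT cells differed by -1.54 points under TMZ (exact permutation p = 0.625), by -8.46, -3.27 and 1.92 points within sets 1, 2 and 3, and by -0.158 points without set 1.

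Marked C and T sites were followed by a G more often than all C and T positions as well. Of marked C sites 37.9% ± 2.62 under TMZ and 33.4% ± 1.79 in solvent had a G after them (SD, n = 12 each), against 19.0% of all C positions. Of marked T sites it was 40.3% ± 3.84 and 36.2% ± 1.595, against 30.03% of all T positions. Relative to its own base composition, the excess of a G after the mark was thus not confined to A and was proportionally larger at C, values given as a description without a test. Over the autosomes, enrichment at +1 at C sites was 0.356 ± 0.0207 in solvent and 0.361 ± 0.0209 under TMZ. It was 0.916 ± 0.0316 and 0.978 ± 0.0858 at T sites, and 2.27 and 3.23 at A sites. The rise under TMZ at +1 was thus largest at A, which was not tested.

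A G before the marked A was also more frequent under TMZ, with a smaller shift. TMZ libraries had it at 32.2% ± 1.97 of A sites and solvent libraries at 26.4% ± 2.20 (SD, n = 12 each), against 27.8% of all A positions. The difference of 5.86 points (exact permutation p = 5e-05, adjusted p = 0.000463, 11 of 12 pairs) was 6.28 and 7.78 points within sets 2 and 3 and 0.259 points within set 1. It was 33.8% ± 0.890 after 3x and 30.7% ± 1.44 after 1x (n = 6 each), a difference of 3.07 points without overlap (exact permutation p = 0.005, adjusted p = 0.0132), and 2.59 and 2.35 points within sets 2 and 3. Naked DNA had 33.5%, 35.0% and 35.2%, 0.815 points above 3x TMZ (exact permutation p = 0.238). MGMT and WT cells differed by -0.623 points under TMZ (exact permutation p = 0.38), and by 0.362, -1.92 and -0.0886 points within sets 1, 2 and 3. Marked C and T sites were preceded by a G more often under TMZ as well, with 36.8% ± 1.93 against 33.2% ± 1.44 at C and 26.2% ± 2.78 against 20.6% ± 1.79 at T (SD, n = 12 each), where all C and T positions had 29.9% and 21.1%. Over the autosomes, enrichment at -1 at T sites was 1.47 ± 0.241 under TMZ and 0.961 ± 0.0830 in solvent. At C sites it was 1.48 ± 0.147 and 1.24 ± 0.0356, so the higher values on this side were not particular to A. At offset -2 the share with a G was higher as well, with 26.5% in solvent, 33.4% in 3x TMZ and 35.3% in naked DNA. Far from the promoter A a G was more frequent under TMZ too. At offset -10 it was 25.5% in solvent, 27.6% in 1x and 28.9% in 3x TMZ. At +10 it was 25.0%, 28.4% and 29.3%. The promoter differences at both adjacent offsets thus hold a rise that was not particular to the adjacent base. Among the contexts below, the rise of a G before the A passed only in GAG, with a G on both sides.

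**Figure D4:**
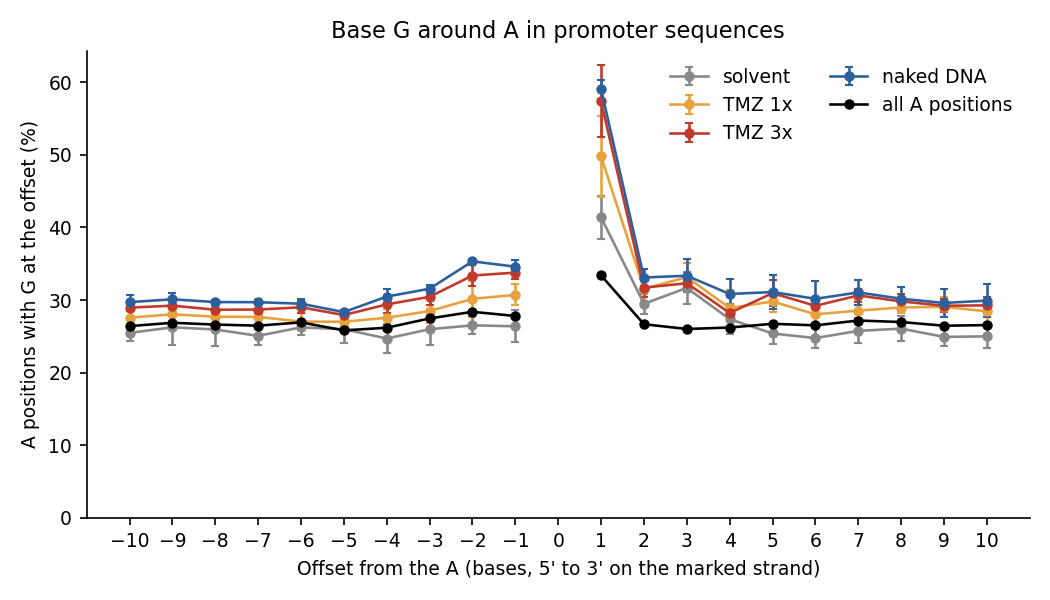
Percent of promoter A sites with the base G at each offset, as group means with SD over libraries, and the same percent over all promoter A positions in black. At +1 all groups lie above the 33.4% of all A positions, and at -1 solvent (26.4%) lies below the 27.8% of all A positions and the other groups above.

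Among the 16 bases-before-and-after contexts, 13 (81.2%) differed between TMZ and solvent (exact two-sided permutation tests of the ratio to all A positions, adjusted over the 16 contexts at 0.05). The 4 that were higher under TMZ (25.0%) were all those with a G after the A, namely GAG, AAG, CAG and TAG. GAG stood at 1.89 ± 0.149 times its share of all A positions in 3x TMZ, 1.96 ± 0.102 in naked DNA and 1.18 ± 0.174 in solvent, and AAG at 1.92 ± 0.294, 1.88 ± 0.130 and 1.26 ± 0.204. The other 2 were already above 1 in solvent, with CAG at 1.22 ± 0.0989 there and 1.45 ± 0.102 in 3x TMZ, and TAG at 1.40 ± 0.146 and 1.66 ± 0.118. The 9 lower contexts (56.2%) had no adjacent G. TAT fell from 1.16 ± 0.299 in solvent to 0.630 ± 0.130 in 3x TMZ and was 0.429 ± 0.0666 in naked DNA, where TAA (0.446 ± 0.0767) and TAC (0.457 ± 0.0202) followed. GAA, GAT and GAC, with a G only before the A, did not pass (adjusted p = 0.676, 0.512 and 0.585, permutation). They had 0.874, 0.888 and 0.678 under TMZ and 0.902, 0.842 and 0.650 in solvent, where GAG had 1.72 and 1.18. Whether a G before the A was more frequent among A sites without a G after them was not tested. Since the 16 shares add up to the whole, a higher share of some contexts lowers the others.

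Whether the G after a promoter A was itself a marked base was read from the reference. Of the A sites followed by a G, 4.90% ± 0.750 had that G marked in naked DNA when the library was of TMZ cells, and 3.99% ± 0.773 when it was of solvent cells (SD, n = 12 each), with 2.99% of all 1230283 such A positions. The difference of 0.910 points passed (exact two-sided permutation p = 0.0141, adjusted p = 0.0267, 8 of 12 pairs) and was 0.896, 0.579 and 1.28 points within sets 1, 2 and 3. Without replicate 1 or without replicate 3 it was 0.808 and 0.906 points and did not pass (exact permutation p = 0.108 and 0.0633). Of naked DNA's promoter A sites followed by a G, 596 of 9882 (6.03%) had that G marked in 3x TMZ cells, where all such positions had 3.62%. In TMZ, solvent and naked DNA alike, the G after a marked A was more often itself a marked G than the G after any promoter A, a description without a test of its own. The G before a marked A showed this too. It was marked in 3.28% of such sites in solvent, 3.25% in 1x TMZ and 3.63% in 3x TMZ, pooled over libraries, against 2.07% of all A positions preceded by a G, and in 3.87% in naked DNA against 2.30% with the 3x TMZ reference. Offsets farther from the A were not read in this way, so whether the excess is particular to an adjacent G was not tested.

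The same was asked within single libraries, with the library's own G sites as the reference. Enrichment at +1 was 3.90 ± 0.712 under TMZ and 3.00 ± 1.44 in solvent (SD, n = 12 each), and the difference of 0.898 did not pass (exact two-sided permutation p = 0.0834). The solvent libraries of set 1 stood apart, with 6.20 in WT and 5.13 in MGMT 1x solvent replicate 1, as did WT 3x solvent replicate 1 with 4.53. These 3 had the fewest A sites of the series. Within sets 1, 2 and 3 the difference was -1.15, 0.175 and 2.22, so its sign changed between sets. Without the libraries of set 1 it was 1.31 (exact permutation p = 0.00167). At -1 it was 1.66 ± 0.594 under TMZ and 2.61 ± 2.34 in solvent (exact permutation p = 0.209), with 8.77 and 5.36 in the solvent libraries of set 1. That difference of -0.957 was -4.24, -0.808 and 0.0340 within sets 1, 2 and 3, and -0.301 without set 1 (exact permutation p = 0.424).

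The amount of A marks was then set against the C and T marks of the same library. A sites made up 37.5% ± 2.28 of the sites outside G under TMZ and 34.6% ± 1.44 in solvent (SD, n = 12 each). The lowest, median and highest library had 33.7%, 37.1% and 40.8% under TMZ and 33.1%, 34.3% and 38.6% in solvent. The groups overlapped, and the difference of 2.88 points passed (exact two-sided permutation p = 0.0022, adjusted p = 0.0068, 11 of 12 pairs), with 2.19 and 4.99 points within sets 2 and 3 and -1.15 points within set 1. Without replicate 3 it was 2.35 points and did not pass (exact permutation p = 0.0694). After 3x it was 39.1% ± 1.76 and after 1x 35.9% ± 1.51 (n = 6 each), a difference of 3.19 points (exact permutation p = 0.01, adjusted p = 0.0245, 6 of 6 pairs), with 1.95 and 3.29 points within sets 2 and 3, and 2.06 points without replicate 2 (exact permutation p = 0.111). MGMT cells lay -1.38 points from WT cells under TMZ (exact permutation p = 0.15), and -1.14, -2.25 and -0.887 points within sets 1, 2 and 3.

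Naked DNA was far higher in this share of non-G sites, with 58.0%, 51.3% and 50.6%. Its mean of 53.3% ± 4.10 (SD, n = 3) exceeded that of 3x TMZ by 14.2 points (exact two-sided permutation p = 0.0119, the smallest possible, adjusted p = 0.0245) and that of solvent by 18.7 points (exact permutation p = 0.0022, the smallest possible, adjusted p = 0.0068). No cell library reached the lowest naked DNA value. Within set 1, the only set with both kinds, naked DNA lay 21.1 points above solvent. Among all marked sites, G included, naked DNA lay within the range of 3x TMZ and below solvent. A sites made up 16.9%, 16.3% and 16.3% of them there, 14.4% to 17.1% in 3x TMZ and 21.7% to 28.3% in solvent. That share also depends on the number of G marks.

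In the promoters this could be split by the neighbours of the site. All promoter positions hold 43.0 A per 100 C and T. Marked A sites numbered 45.4 ± 5.29 per 100 marked C and T sites under TMZ and 39.9 ± 4.37 in solvent (SD, n = 12 each), a difference of 5.49 (exact permutation p = 0.0144, adjusted p = 0.0267, 10 of 12 pairs), with -2.75, 2.37 and 10.5 within sets 1, 2 and 3. Leaving out replicate 2 gave 4.59 and leaving out replicate 3 gave 4.10, and neither passed (exact permutation p = 0.0849 and 0.219). Naked DNA had 133, 80.4 and 80.6, where 3x TMZ had 48.5 ± 4.71 (n = 6) (difference 49.5, exact permutation p = 0.0119, adjusted p = 0.0245). Without replicate 1 of both groups the difference was 29.8. Naked DNA lay 58.2 above solvent, and 88.8 above it within set 1.

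Sites without a G on either side have no G 1 base from the deposited position, which may itself lie 1 base from the stop. Of promoter A sites, 44.7% ± 2.58 were of this kind in solvent (n = 12), 36.0% ± 4.64 in 1x TMZ, 28.8% ± 4.30 in 3x TMZ (n = 6 each) and 28.4%, 26.5% and 26.4% in naked DNA, against 49.4% of all A positions. Counted against C and T sites that also lacked an adjacent G, A sites numbered 34.1 ± 2.06 per 100 under TMZ and 36.2 ± 2.90 in solvent (SD, n = 12 each), where all such positions hold 36.9. The difference of -2.05 did not pass (exact two-sided permutation p = 0.0726, TMZ lower in 9 of 12 pairs), and was -3.85, -2.51 and -1.39 within sets 1, 2 and 3. When no G was allowed within 3 bases it was -4.05, TMZ still being lower (exact permutation p = 0.0125). So in cells the ratio at promoter A without an adjacent G was not measured as higher under TMZ, with 137 to 1159 such A sites per library. It does not show whether A marks were fewer or C and T marks more, and no cause was tested.

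In naked DNA the ratio at such sites was higher than in cells. The 3 libraries had 101, 55.8 and 55.0 A sites without an adjacent G per 100 such C and T sites, from 1999, 1194 and 1385 A sites. All 3 lay above every cell library, the highest solvent and TMZ libraries having 42.5 and 37.8. The difference was 36.3 from 3x TMZ (34.3 ± 1.92, n = 6, exact two-sided permutation p = 0.0119, the smallest possible, adjusted p = 0.0245) and 34.5 from solvent (exact permutation p = 0.0022, adjusted p = 0.0068), and 62.1 from solvent within set 1. Without replicate 1, which in naked DNA is the library of set 1, the difference from 3x TMZ was 20.9 and that from solvent 19.97. With no G within 3 bases naked DNA had 98.7, 61.7 and 60.4, where all positions hold 37.8. The ratio does not show whether A marks were more frequent or C and T marks less, and naked DNA differed from cells in handling as well as in treatment, so these cannot be told apart.

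**Figure D5:**
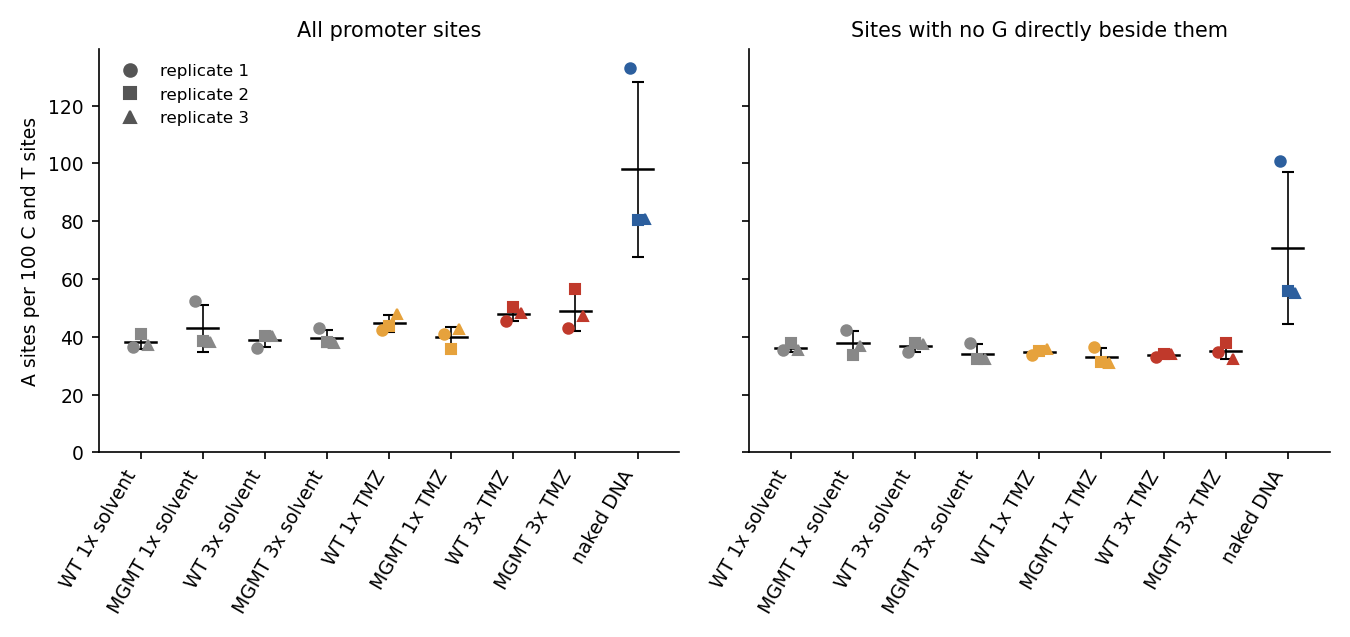
Promoter A sites per 100 C and T sites by group, for all sites (left) and for sites with no G directly beside them (right), 1 point per library with mean and SD of 3 libraries. On the right all TMZ and solvent libraries lie between 31.0 and 42.5, and the 3 naked DNA libraries at 55.0, 55.8 and 101.

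Whether cells and naked DNA marked the same A was measured at offset 0, as the percent of a library's A sites that were A sites of naked DNA over the mean percent at offsets 5 to 10. The base at offset 0 is always an A, while offsets 5 to 10 hold any base. A ratio above 1 is therefore built into the measure, and its level without shared marking was not measured. Outside set 1 this recurrence ran from 3.85 to 4.47 in solvent and from 4.2 to 6.55 in TMZ libraries. Set 1 stood far apart, with 105 and 113 in the WT and MGMT solvent libraries and 7.09 and 32.6 in the WT and MGMT TMZ libraries. Its naked DNA library is part of that reference. In the WT and MGMT solvent libraries of set 1, 36.2% and 33.5% of G sites were also G sites of naked DNA. The other solvent libraries had 2.88% to 3.42%. With all libraries TMZ lay -13.7 from solvent (exact two-sided permutation p = 0.5), and -89.4, 0.8 and 1.98 from it within sets 1, 2 and 3. Without set 1 TMZ was higher by 1.42 (exact permutation p = 0.000278), and with naked DNA replicates 2 and 3 alone as the reference by 1.43 (5.54 ± 0.903 and 4.11 ± 0.318, n = 12 each, exact permutation p = 3.75e-05). The direction thus changed with the libraries of set 1.

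The score threshold of 30 kept 80.7% of the 27607190 A sites of any score. Just inside it, at scores 30 to 34, enrichment at +1 was 2.23 ± 0.284 in solvent, 2.63 ± 0.302 in 1x TMZ, 3.19 ± 0.522 in 3x TMZ and 3.28 ± 0.127 in naked DNA. Just outside, at 25 to 29, it was 2.0 ± 0.188, 3.66 ± 0.694, 4.42 ± 0.799 and 4.02 ± 0.444. At -1 the groups lay at 0.965 ± 0.111, 1.19 ± 0.224, 1.295 ± 0.122 and 1.22 ± 0.0715 just inside and at 1.049 ± 0.141, 1.13 ± 0.112, 1.16 ± 0.114 and 1.03 ± 0.0413 just outside, so below the threshold they were closer together and solvent was no longer below 1.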

How the data were processed

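Each of the 27 files, as deposited by the authors, has no header and lists marked positions with chromosome, position, strand, base and a whole-number score between 0 and 42, which was not a read count. The submitters' processing notes name FastQC 0.11.9, Trimmomatic 0.38 and 0.39, cutadapt, Bowtie2 2.3.5.1, GATK 4.2.0.0, SAMtools 1.12, bedtools 2.29.2 and GRCh38 (hg38), with no role or order. How duplicates were handled and how the score was made is not given in the sources used here. Whether duplicate handling affects which sites libraries share was not tested. The profile just below the score threshold differed from that just above it.

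Autosomal sites with a score of 30 or more were used, and each reference held G of any score. Positions are counted from 1. Mean differences between groups of libraries were tested by exact permutation, two-sided, with labels exchanged only among libraries alike in the other factors, and bases within libraries with an exact sign-flip test. The 37 p-values were adjusted together with the Benjamini-Hochberg method, those of the 20 offsets and 16 contexts within their families. The offset count and the permutation test were tried on simulated data with known answers. Neighbouring bases came from RefSeq promoter sequences (GRCh38.p14), merged over overlapping promoters. Windows were chosen by a rule, the 3 A positions per class of neighbours with the largest excess of TMZ and naked DNA libraries over solvent libraries, chromosome 8 left out.

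The sites, lists and tests were chosen with earlier results of these data known. Promoter measures, each library's own G, the A share of naked DNA against solvent and the omission of set 1 were added after the offset profiles were seen. Replicate numbers were not taken as pairs. In A sites per 1 Mb, same-numbered libraries correlated above 0.1 in 6 of 12 pairs of genotypes (-0.0155 to 0.415), 6 of 12 of treatments and 1 of 6 of dosings. Alternatives were the score minimum, the reference, the baseline, the densest bins, the replicate block and each replicate left out. Software was Python 3.11.15, numpy 2.4.6, pandas 2.3.3, numba 0.67.0 and matplotlib 3.10.9.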

Additional observations from a re-analysis of the deposited data

Results flagged for a closer look

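In 6 of 32 tests, each of 1 measure in 1 group of libraries, the highest or lowest library lay far from the nearest of the others (Dixon's test). Chance gives this in about 1 in 20 tests. G enrichment directly before the A was 0.945 in MGMT 1x TMZ replicate 2, the lowest of the 6 libraries of 1x TMZ. Of the 188500 A sites of MGMT 1x solvent replicate 1, a library of set 1, 18.2% were also A sites of naked DNA. It was the highest of the 6 libraries of 1x solvent in 3 measures. They were the A share of non-G sites (38.6%), the share of promoter A sites followed by G (48.0%) and the promoter A sites per 100 C and T sites (52.3). Recurrence of A sites at naked DNA A sites was 32.6 in MGMT 1x TMZ replicate 1, which is also in set 1. Enrichment of the library's own G directly after the A was 4.53 in WT 3x solvent replicate 1, which had 285220 A sites.

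The TMZ effect on G enrichment directly before the A differed between dosings. TMZ minus solvent was 0.360 after 3x and 0.154 after 1x, and these effects differed by 0.206 (exact permutation p = 0.005, the smallest possible, adjusted p = 0.05 over 10 such tests). At the base directly after the A the effects were 1.36 and 0.557, and their difference of 0.803 did not pass after adjustment (exact permutation p = 0.02, adjusted p = 0.0667).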

How the results depend on the processing

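Across 37 results, 314 alternatives were run, and 261 kept the direction and the side of an unadjusted p of 0.05. In 34 a call was lost, and in 27 of these so few libraries or pairs remained that the test could not pass. In 7 a call was gained and in 12 the sign turned, and the cause was not tested except where the number of libraries limits the p. The sites carry no read number, so depth limits the small libraries most.

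With the replicate number as a block, naked DNA differences were as large, 14.2 and 18.7 points of A share (from 3x TMZ and solvent), 49.5 and 58.2 promoter A sites per 100 C and T, and 36.3 and 34.5 of those without an adjacent G, but 3 pairs cannot give an exact p under 0.25. The block gained the call for the 7.58 points of promoter A followed by G between dosings (exact p = 0.0313) and for the -2.05 A per 100 C and T without an adjacent G under TMZ (exact p = 0.0483), and it changed no other call. Same-numbered 1x and 3x libraries lie in different sets for replicates 1 and 2. With no G within 3 bases the latter was -4.05.

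With A sites of any score, enrichment at -1 differed by 0.0414 between dosings, by -0.00721 between genotypes in solvent, and between A and C or T by 0.134 and 0.0514. With the opposite strand as baseline, A minus C at -1 was 0.0367 and MGMT minus WT in solvent at +1 was 0.0266. With naked DNA replicates 2 and 3 as reference, MGMT minus WT under TMZ at -1 was -0.106 and gained the call (exact p = 0.05), and recurrence turned to 1.43. Without set 1, recurrence was 1.42, the dosing difference at +1 was 0.674 and own-library enrichment at +1 differed by 1.31 between treatments (1.13 with baseline offsets 3 to 10).

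Leaving out each replicate number in turn, dosing differences ran from 0.119 to 0.242 at -1, 0.424 to 0.980 at +1, 2.06 to 4.18 points of A share and 2.46 to 3.46 points of promoter A preceded by G. For TMZ against solvent, A share ran from 2.35 to 3.85 points, promoter A per 100 C and T from 4.10 to 7.77, the marked share of G after promoter A from 0.808 to 1.02 points, recurrence from -21.3 to 1.46, and own-library enrichment from 0.462 to 1.71 at +1 and from -1.46 to 0.0473 at -1. For naked DNA against 3x TMZ, A share ran from 10.8 to 15.9 points, promoter A per 100 C and T from 29.8 to 60.8, those without an adjacent G from 20.9 to 44.5, and promoter A followed by G from -0.440 to 3.19 points. For MGMT against WT, enrichment at +1 in solvent ran from -0.0392 to 0.0331 and promoter A followed by G under TMZ from -2.91 to 1.03 points.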
